A study of Capra hircus with 6 samples.

Results

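Genes of the interferon response and of antigen presentation were examined in the pineal gland of female goats (Capra hircus) before and at puberty. They were chosen by symbol. Of 47 listed symbols, 33 matched a row of the authors' count table, which holds 28244 genes, and all 33 passed the filter on low counts. The other 14 (ISG15, OAS1X, OAS1Y, OAS1Z, OAS2, USP18, BST2, ZBP1, GBP2, GBP4, GBP5, TAP2, B2M and IFNAR2) matched no symbol and were not analysed here under those names. The study compared 2 groups of 3 RNA sequencing libraries, prepuberty and puberty, all from untreated females. Pubertal goats had an inflamed vulva and mature ovarian follicles, per the series description. Breed and age are not given in the sources used here. Nothing says whether 1 animal or several stand behind the libraries of a group, and the p-values therefore reflect library-to-library spread only, part of which may be technical.

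Interferons are secreted proteins, and cells release those of type I on sensing foreign nucleic acid. Type I interferons bind the receptor of IFNAR1 and IFNAR2, and interferon gamma that of IFNGR1 and IFNGR2. Both receptors signal through JAK kinases and STAT factors, which with interferon regulatory factors (IRFs) switch on antiviral effectors. The same signals raise the immunoproteasome subunits and peptide transporters that load MHC class I molecules. In neural tissue a low level of these transcripts is found in many cell types, and microglia and endothelial cells respond readily.

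No gene of the 33 passed the test for a difference between the stages. With edgeR's quasi-likelihood test, adjusted over all 16588 genes tested, 0 of the 33 rose and 0 fell in puberty at an adjusted p under 0.05, whereas 11.5% of all tested genes were called (5.85% higher and 5.64% lower). DESeq2 and limma-voom also called 0 of the 33, beside 16.8% and 9.92% of all tested genes. At an unadjusted p under 0.05 edgeR had 3 of the 33 higher and 2 lower, or 15.2%, beside 29% of all tested genes. The lowest adjusted p among them was 0.104, for IRF7. The median log2 fold change of the 33 was 0.02 and that of all tested genes 0.01, with 17 values above 0 and 16 below. The groups did not overlap for 5 genes that were higher in puberty and 1 that was lower, or 18.2% of the 33, beside 34.8% of all tested genes (17.2% higher and 17.6% lower). The median standard error (SE) of the log2 fold change was 0.22 for the 33 and 0.15 for all tested genes. The shares called were therefore not set side by side at like precision. A p that misses the threshold does not show equality, so intervals are given. The 95% interval of the log2 fold change, not adjusted for the number of genes, left out 0 for the 5 genes with an unadjusted p under 0.05 (IRF7, PSMB8, TAP1, IFNAR1 and SAMD9). It lay within a 2-fold change in both directions for 27 of the 33 genes and within a 1.5-fold change for 11.

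**Figure D1:**
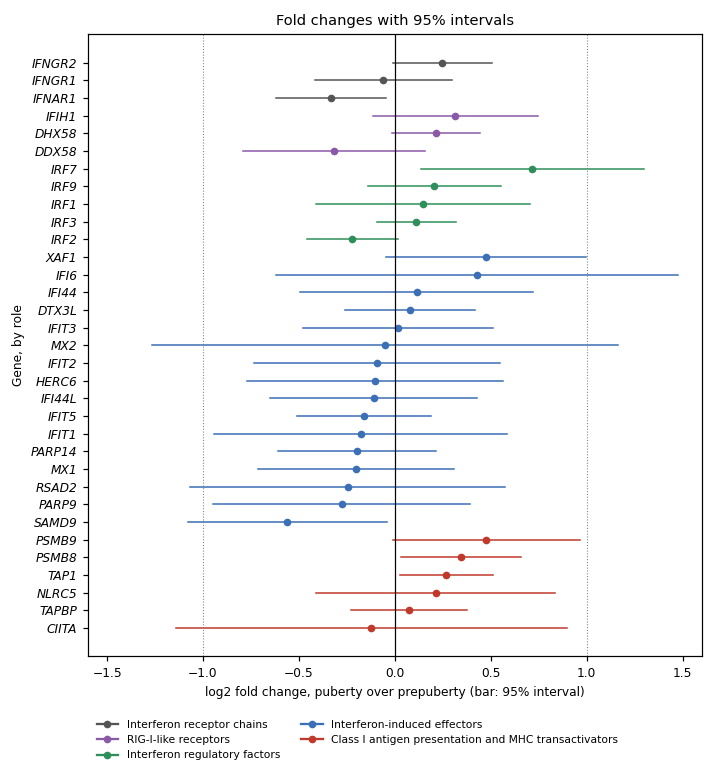
Log2 fold change of each gene, puberty over prepuberty, on the horizontal axis, with its 95% interval as a bar and genes ordered by role on the vertical axis; dotted lines mark a 2-fold change. Intervals of 27 of the 33 genes stay between the dotted lines, and those of MX2, IFI6 and CIITA are among the widest.

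Library totals ran from 18864451 to 20971065 counts. All 12 pinealocyte markers on the list, TPH1, ASMT and CRX among them, were measured, with a summed level of 8616 to 9561 CPM (counts scaled to a common library total) in prepuberty and 9112 to 10689 CPM in puberty. Each of edgeR, DESeq2 and limma-voom called 1 of the 12 higher, ISL2, and 1 lower, RBP3. That is 16.7%, beside 11.5%, 16.8% and 9.92% of all tested genes. Their adjusted p with edgeR was 0.016 for ISL2 and 0.040 for RBP3. Puberty replicate 2 stood apart in 3 of 5 choroid plexus markers, TTR, KCNJ13 and KL. TTR was at 10082 CPM there against 75.2 to 464 CPM in the other libraries, and SLC4A5 was not raised. OTX2 was high in all 6 libraries, at 450 to 572 CPM, so it says little on choroid plexus here. All 16 microglia and macrophage markers had a positive log2 fold change, with a median of 0.61. Of these 1, TYROBP, was called by edgeR (6.25%, beside 11.5% of all tested genes), 7 by DESeq2 (43.8%, beside 16.8%) and 0 by limma-voom. EdgeR had 9 of the 16 higher and 0 lower at an unadjusted p under 0.05. That is 56.25%, beside 14.5% of all tested genes higher and 14.5% lower. Of 7 astrocyte markers 4 had a log2 fold change above 0 and 3 below. EdgeR called 1 higher, ALDH1L1 (14.3%, beside 11.5%), DESeq2 2 (28.6%, beside 16.8%) and limma-voom 1 (14.3%, beside 9.92%). Astrocyte sums were 2942 to 4360 CPM in prepuberty and 4519 to 4739 CPM in puberty. GFAP alone made up 2234 to 3407 and 3529 to 3890 CPM of them. In bulk tissue, fewer cells of a type and less RNA per cell cannot be told apart.

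Levels between genes were compared per length, in the authors' FPKM (fragments per kilobase of gene, scaled to library size). TAPBP, which encodes tapasin, the chaperone that holds class I molecules to the peptide transporter, had the highest mean over the 6 libraries, 80.0 FPKM (range 67.0 to 93.4). IRF3, the constitutive factor that starts interferon transcription, followed at 54.6 FPKM (50.0 to 59.9), and its range did not touch that of TAPBP. DHX58, a helicase that tunes sensing of viral RNA, was at 30.6 FPKM (25.9 to 34.5). IFNGR2 at 26.3 FPKM overlapped in range with DHX58 and with IFNAR1 at 23.8 FPKM. Ranges also overlapped among IRF2, IFNGR1, MX1 and IFI6, whose means lay between 18.4 and 19.7 FPKM. After TAPBP, the next 6 places were held by the receptor chains, DHX58, IRF3 and IRF2. The 16 effectors spread widely, from MX1, IFI6 and IFIT5 (15.97 FPKM) at the top through IFIT1 at 11.1, IFIT3 at 5.85, MX2 at 3.99 and RSAD2 at 2.89 FPKM to SAMD9 at 1.32 FPKM. The MHC transactivators were lowest, NLRC5 (class I) at 0.895 and CIITA (class II) at 0.484 FPKM.

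**Figure D2:**
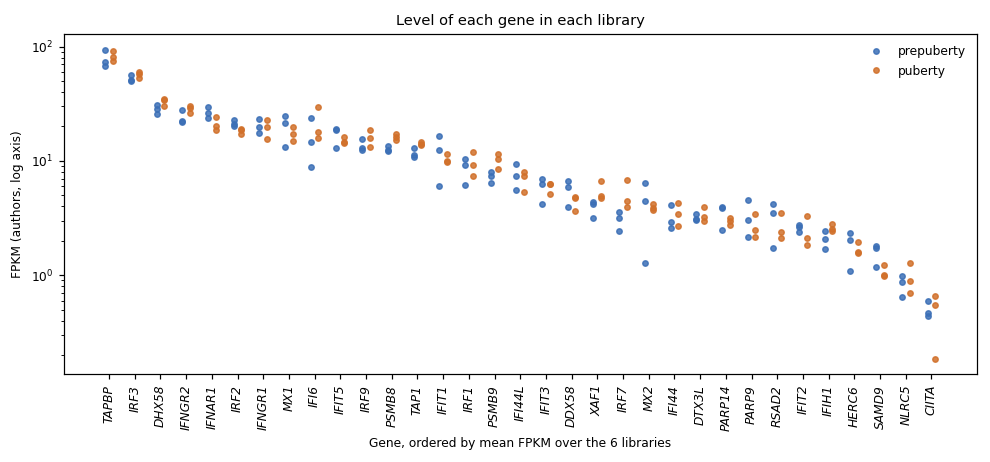
Authors' FPKM of each gene (log axis) in each of the 6 libraries, 1 point per library, with genes ordered by their mean. The means run from 80.0 FPKM for TAPBP to 0.484 FPKM for CIITA, and the single low prepuberty point of MX2 is prepuberty replicate 1.

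Among the receptor chains, IFNAR1 on chromosome 1 (627462 to 652881, minus strand, as the authors' table lists it) was at 44.5, 49.6 and 40.3 CPM in prepuberty and 34.1, 31.5 and 41.0 CPM in puberty. Puberty replicate 3 lay just above prepuberty replicate 3, so the groups overlapped. The mean was 44.8 ± 4.7 CPM in prepuberty and 35.5 ± 5.0 CPM in puberty (SD, n = 3 per group), and the log2 fold change was -0.34 (SE 0.13, 95% interval -0.62 to -0.05) with edgeR's adjusted p = 0.12. IFNGR2, the signalling chain of the interferon gamma receptor, lies beside it, 60.9 kb away, and was at 94.7, 120.2 and 94.0 CPM in prepuberty and 129.6, 124 and 113 CPM in puberty. Its prepuberty replicate 2 lay within the puberty range, and its log2 fold change was 0.25 (SE 0.11, adjusted p = 0.19 with edgeR). IFNGR1, the ligand-binding chain, was at 92.6 ± 14 CPM and 88.8 ± 17 CPM in the 2 groups, with a log2 fold change of -0.06 (95% interval -0.42 to 0.30).

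The RNA sensors had 0 of 3 genes called. DHX58 (chromosome 19) was at 58.4, 53.4 and 63.8 CPM in prepuberty and 71.2, 70.6 and 61.7 CPM in puberty, where puberty replicate 3 overlapped the prepuberty range (log2 fold change 0.21, adjusted p = 0.20 with edgeR). IFIH1, which encodes MDA5, the sensor of long double-stranded RNA, had a log2 fold change of 0.32 (95% interval -0.11 to 0.74). DDX58, which encodes RIG-I, the sensor of RNA ends, had one of -0.32 (-0.79 to 0.16). The values of these 2 sensors differ in sign, and both intervals include 0.

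Of the 5 IRFs 0 were called. IRF7, the factor that amplifies type I interferon transcription and is itself interferon-induced, lies on chromosome 29 (45828818 to 45831472). It was at 4.16, 5.44 and 6.18 CPM in prepuberty and 7.66, 11.6 and 6.74 CPM in puberty, from counts of 81, 111 and 119 and of 156, 216 and 136. All puberty libraries lay above all prepuberty libraries, with puberty replicate 2, the library with high TTR, the highest. The difference was 1.64-fold (log2 fold change 0.72, SE 0.26, 95% interval 0.13 to 1.30, adjusted p = 0.104 with edgeR and 0.064 with DESeq2), the largest of the 33 in size. Without puberty replicate 2 the log2 fold change was 0.45 (adjusted p = 0.30 with edgeR), 1 of the alternatives, over which the adjusted p of IRF7 ran from 0.064 to 0.30. The part of choroid plexus markers in this value was not tested.

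IRF2, which represses as well as activates interferon genes, was at 29.1, 31.8 and 27.9 CPM in prepuberty and 26.3, 23.8 and 26.1 CPM in puberty. It was the only one of the 33 whose puberty libraries all lay below the prepuberty libraries, with a log2 fold change of -0.22 (SE 0.10, adjusted p = 0.198 with edgeR). IRF3 had a log2 fold change of 0.11 (95% interval -0.09 to 0.32), IRF9, the DNA-binding partner of STAT2, one of 0.21 (-0.14 to 0.55) and IRF1, induced by interferon gamma, one of 0.15 (-0.41 to 0.71).

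The 16 effectors had a median log2 fold change of -0.11, with 5 values above 0 and 11 below, and 0 called. Genes of 1 family can share reads, so values within the IFIT, MX and IFI44 families are uncertain. SAMD9, an antiviral factor that restricts poxviruses, had the lowest value. It was at 5.60, 8.63 and 8.31 CPM in prepuberty and 4.66, 4.76 and 5.85 CPM in puberty, where puberty replicate 3 overlapped prepuberty replicate 1 (log2 fold change -0.56, SE 0.23, adjusted p = 0.146 with edgeR). XAF1, a pro-apoptotic interferon-induced gene, was at 3.96, 5.20 and 5.45 CPM in prepuberty and 5.89, 8.30 and 6.15 CPM in puberty. Its groups did not overlap, and its log2 fold change was 0.48 (SE 0.23, adjusted p = 0.21 with edgeR).

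The effectors varied most among the prepuberty libraries. MX2, a dynamin-like antiviral GTPase on chromosome 1 (141200459 to 141228802), was at 2.72, 9.56 and 13.9 CPM in prepuberty and 8.05, 8.24 and 8.97 CPM in puberty. Prepuberty replicates 1 and 3 thus lay on either side of all puberty libraries, 5.09-fold apart, and the log2 fold change of -0.05 had an interval of -1.26 to 1.17. IFIT1, which binds viral RNA that lacks a methylated cap, was at 8.79, 18.1 and 24.1 CPM in prepuberty and 14.4, 16.5 and 14.2 CPM in puberty, with the same order of the prepuberty libraries. IFI6, an interferon-induced membrane protein, was at 26.5, 43.6 and 70.1 CPM in prepuberty and 46.8, 88.5 and 53.2 CPM in puberty, and was highest in puberty replicate 2.

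MX1, the neighbour of MX2 at a distance of 19.7 kb, was at 26.2, 42.5 and 48.3 CPM in prepuberty and 29.5, 38.8 and 33.5 CPM in puberty, with a log2 fold change of -0.20 (95% interval -0.71 to 0.31). RSAD2, which encodes the antiviral enzyme viperin, was at 1.95, 3.97 and 4.73 CPM in prepuberty and 2.70, 3.91 and 2.38 CPM in puberty. PARP9, a macrodomain protein that works with the ubiquitin ligase DTX3L, was at 5.65, 8.09 and 12.1 CPM in prepuberty and 5.74, 9.05 and 6.54 CPM in puberty. Each of these 3 was lowest in prepuberty replicate 1 and highest in prepuberty replicate 3 within that group. DTX3L itself, which lies head to head with PARP9 at a gap of 5.2 kb, was at 13.5, 14.9 and 13.2 CPM in prepuberty and did not have that order.

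Log2 fold changes of the other effectors were small, with SEs from 0.15 (IFIT5) to 0.30 (HERC6). IFIT5, IFIT3 and IFIT2, which lie with IFIT1 on the minus strand of chromosome 26 at gaps of 8.4 to 23.8 kb, had log2 fold changes of -0.16, 0.02 and -0.09. IFI44L and IFI44, neighbours on chromosome 3 at 17.1 kb, had values of -0.11 and 0.11, the ubiquitin ligase gene HERC6 -0.10 and PARP14, a macrodomain relative of PARP9, -0.20. Their adjusted p with edgeR ran from 0.511 for PARP14 to 0.972 for IFIT3, and each gene had overlapping groups. IFIT5 was at 18.9, 26.8 and 27.6 CPM in prepuberty and at 20.96, 21.1 and 23.5 CPM in puberty, so that prepuberty replicate 1 was again the lowest library.

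Counted over the list, 14 of the 16 effectors were lowest in prepuberty replicate 1 among the prepuberty libraries, the exceptions being DTX3L and IFIT2, and 13 were highest in prepuberty replicate 3. Over all tested genes the shares were 31.5% and 33.8%. The median ratio of the highest to the lowest prepuberty library was 1.69 for the effectors and 1.24 for all tested genes, and in puberty it was 1.32 and 1.26. Summed over the 16, the level was 151, 235 and 288 CPM in prepuberty and 197, 259 and 223 CPM in puberty. The puberty sums all lay between the lowest and the highest prepuberty sum. Microglia and macrophage markers did not follow that order, with sums of 272, 321 and 237 CPM in prepuberty and 279.8, 484 and 513 CPM in puberty. Endothelial markers were at 458, 569 and 435 CPM in prepuberty and 442, 476 and 536 CPM in puberty. This order of libraries was noticed in the data and has no test, since the effectors share the same 6 libraries. Without prepuberty replicate 1, 6 of the 33 genes had an unadjusted p under 0.05, all lower in puberty (18.2%, beside 23.3% of all genes in that fit). Without prepuberty replicate 3 there were 5, of which 4 were higher (15.2%, beside 23.8%). In both fits edgeR called 0 of the 33.

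**Figure D3:**
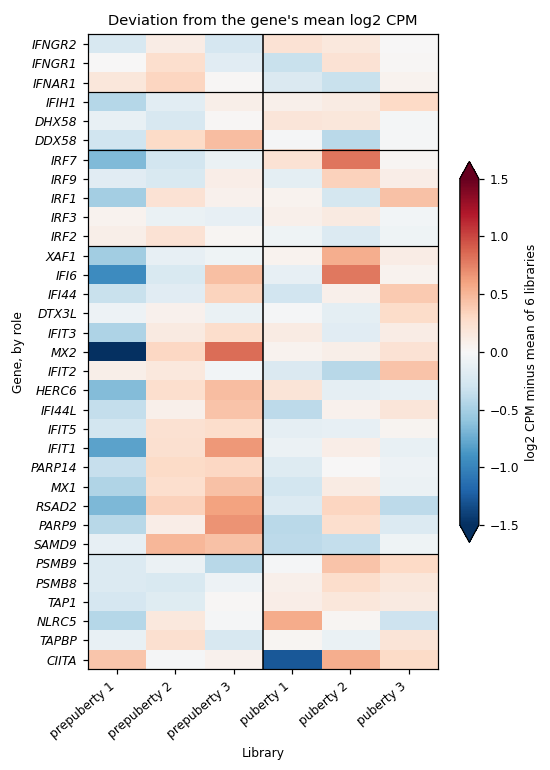
Log2 CPM of each gene minus its mean over the 6 libraries (colour), with libraries in columns and genes in rows by role; horizontal lines part the roles in the order receptor chains, RNA sensors, IRFs, effectors and antigen presentation. Most effectors are blue in prepuberty replicate 1 and red in prepuberty replicate 3. In the rows of PSMB9, PSMB8 and TAP1 every puberty cell is redder than every prepuberty cell.

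Rows that the authors' table describes as ISG15 and as oligoadenylate synthetase 1 carry the symbols ISG17 and OAS1 and were looked at after their values were seen. ISG17, at 3.80, 4.91 and 9.71 CPM in prepuberty and 7.90, 10.6 and 6.64 CPM in puberty, was not called (log2 fold change 0.45, 95% interval -0.36 to 1.25). OAS1, which makes the activator of RNase L, was at 61.0, 87.0 and 114 CPM in prepuberty and 116, 89.1 and 121 CPM in puberty (log2 fold change 0.32, -0.23 to 0.86). Both were lowest in prepuberty replicate 1 and highest in prepuberty replicate 3 within prepuberty. The ISG17 row overlaps AGRN on the same strand, and OAS1 overlaps a gene without a symbol, so their counts are uncertain.

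Among the 6 antigen presentation genes 0 were called, and 5 of their log2 fold changes were above 0 (median 0.24). PSMB9, TAP1 and PSMB8 lie next to each other on chromosome 23 (41490176 to 41496621, 41497225 to 41505487 and 41507085 to 41510217). PSMB9 and TAP1 point away from each other with 603 bases between them, and PSMB8 follows TAP1 after 1597 bases. TAP1, a chain of the peptide transporter, was at 24.5, 25.7 and 29.5 CPM in prepuberty and 31.3, 32.8 and 32.0 CPM in puberty. The immunoproteasome subunit PSMB8 was at 10.4, 10.2 and 11.3 CPM in prepuberty and 12.6, 14.3 and 13.4 CPM in puberty. PSMB9, another such subunit, was at 4.83, 5.25 and 4.15 CPM in prepuberty and 5.50, 7.49 and 6.84 CPM in puberty. In all 3 genes every puberty library lay above every prepuberty library, although by little. Groups thus did not overlap for 50% of the 6 genes, beside 18.2% of the 33 and 34.8% of all tested genes (17.2% higher).

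The log2 fold change was 0.27 for TAP1 (SE 0.11, adjusted p = 0.136 with edgeR), 0.34 for PSMB8 (SE 0.14, adjusted p = 0.14 with edgeR) and 0.48 for PSMB9 (SE 0.22, adjusted p = 0.179 with edgeR). The folds of PSMB8 and PSMB9 were 1.27 and 1.39. Over all tested genes the log2 fold change ran against gene length (Spearman rho of -0.28 across genes, which are not independent replicates), and PSMB8 (831 nt) and PSMB9 (651 nt) have short listed lengths. With offsets that remove the trend with length, the log2 fold changes were 0.22 for PSMB8 and 0.31 for PSMB9, while TAP1 (2253 nt) was at 0.30. PSMB8 also overlaps a gene without a symbol on the same strand.

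TAPBP was at 118, 150.4 and 108 CPM in prepuberty and 130.0, 119 and 146 CPM in puberty, with overlapping groups and a log2 fold change of 0.07 (95% interval -0.23 to 0.37). It overlaps RGL2 on the same strand. NLRC5, the class I transactivator, was at 5.13 ± 1.0 and 5.94 ± 1.8 CPM (log2 fold change 0.21, -0.41 to 0.84). CIITA, the master regulator of class II genes, was low, with counts of 40, 31 and 31 in prepuberty and 13, 42 and 38 in puberty. Puberty replicate 1 was the lowest library for CIITA, and its log2 fold change of -0.12 had an interval of -1.14 to 0.89.

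Other genes of the pathway were taken from lists drawn up with the 33, of which 92 of 141 symbols were in the table and 86 were tested. Of these 3 rose and 1 fell in puberty with edgeR, or 4.65%, beside 11.5% of all tested genes, and their median log2 fold change was 0.05. Of the 30 other interferon-induced genes tested, edgeR and limma-voom called 0. DESeq2 called 2 higher (IFI27L2 and ISG20) and 1 lower (ADAR), or 10%, beside 16.8% of all tested genes. At an unadjusted p under 0.05 edgeR had 3 higher and 3 lower, or 20%, beside 29% of all tested genes. Of 15 tested genes of nucleic acid sensing edgeR and limma-voom called 0 and DESeq2 1 (TLR4), or 6.67%, beside 16.8%. EdgeR had 1 higher and 2 lower at an unadjusted p under 0.05, or 20%, beside 29%. Of the 6 other IRFs and partners edgeR and limma-voom called 0 and DESeq2 1 (IRF2BPL), or 16.7%, beside 16.8%. At an unadjusted p under 0.05 edgeR had 4 of these 6 higher and 0 lower, or 66.7%, beside 14.5% of all tested genes higher and 14.5% lower. The median log2 fold change of the 6 was 0.42. The 4 were the partners IRF2BP1, IRF2BPL, BATF3 and SPI1, and IRF8 was not among them (unadjusted p = 0.058 with edgeR). Among the puberty libraries, BATF3 and SPI1 were lowest in puberty replicate 1, as were 15 of the 16 microglia and macrophage markers. IRF2BP1 and IRF2BPL were not. The part of microglia in these values was not tested. Only 2 interferon genes of the list matched a row. IFNG had 0 counts in each of the 6 libraries, which allows up to 3 counts per library, and IFNK had 1 count in prepuberty replicate 1 and 0 elsewhere.

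Of 13 tested genes of JAK-STAT signalling edgeR called 1 (7.69%, beside 11.5% of all tested genes), DESeq2 2 (15.4%, beside 16.8%) and limma-voom 0. PTPN6, which encodes the inhibitory phosphatase SHP-1 of blood and myeloid cells, rose. It was at 18.6, 20.3 and 21.9 CPM in prepuberty and 25.1, 33.0 and 27.5 CPM in puberty (1.41-fold, log2 fold change 0.49, SE 0.13, adjusted p = 0.045 with edgeR). PTPN6 is also expressed by microglia, whose 16 markers had the sums given above. Among the puberty libraries, 10 of these markers were highest in puberty replicate 3 and 6 in puberty replicate 2. PTPN6 was highest in puberty replicate 2. The part of microglia in its value was not tested. The call of the microglial adaptor TYROBP (adjusted p = 0.041 with edgeR) was lost with limma-voom (0.081) and without any 1 library other than puberty replicate 1 (0.080 to 0.127).

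In the JAK-STAT list 11 of the 13 log2 fold changes were below 0, with a median of -0.10. For 5 genes the groups did not overlap and puberty was lower, and for PTPN6 it was higher, together 46.2% of the list beside 34.8% of all tested genes. These 5 were not called by edgeR. JAK2, the kinase of the interferon gamma receptor, had the lowest value, at 33.9, 38.3 and 34.2 CPM in prepuberty and 29.3, 23.8 and 29.1 CPM in puberty, a log2 fold change of -0.37 (SE 0.12, edgeR's adjusted p = 0.0695), and was the 1 lower gene of the list that DESeq2 called (adjusted p = 0.0499, range over the alternatives 0.0499 to 0.187). PIAS1, an inhibitor of STAT factors, had a value of -0.32, STAT2, a factor of type I signalling, -0.24, the kinase JAK1 -0.15 and the phosphatase PTPN2 -0.09 on the same scale (edgeR's adjusted p from 0.135 to 0.519).

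Of 14 other genes of class I processing, 2 rose and 1 fell with edgeR, or 21.4%, beside 11.5% of all tested genes. DESeq2 called 3 higher and 2 lower (35.7%, beside 16.8%), adding RFXANK and ERAP1, and limma-voom 1 and 1, TAPBPL and LNPEP (14.3%, beside 9.92%). TAPBPL, which encodes TAPBPR, a peptide editor related to tapasin, was at 41.5, 42.0 and 42.3 CPM in prepuberty and 58.4, 57.2 and 60.1 CPM in puberty. The groups were far apart beside their narrow spread, and the gene rose by 0.48 on the log2 scale (SE 0.08, adjusted p = 0.014 with edgeR), which is 1.40-fold. LNPEP, an aminopeptidase of endosomes that trims peptides in cross-presentation and also cleaves oxytocin, was at 44.2, 42.7 and 38.3 CPM in prepuberty and 25.6, 22.1 and 23.1 CPM in puberty. It fell by 0.82 on the log2 scale (SE 0.11, adjusted p = 0.014 with edgeR), which is 1.77-fold lower. PSME2, a subunit of the interferon-induced proteasome activator PA28, was at 48.9, 43.6 and 52.5 CPM in prepuberty and 60.5, 68.2 and 59.7 CPM in puberty. It rose by 0.38 on the log2 scale (SE 0.10, adjusted p = 0.048 with edgeR), or 1.30-fold. Its partner PSME1 was not called, at a log2 fold change of 0.21 (edgeR's adjusted p = 0.20), but its groups did not overlap.

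The calls of TAPBPL and LNPEP were lost when prepuberty replicate 1 was left out (adjusted p = 0.061 for each with edgeR), a fit in which 0 of all tested genes were called, with log2 fold changes of 0.49 and -0.77. The adjusted p ran from 0.00012 to 0.061 for TAPBPL and from 1.9e-07 to 0.061 for LNPEP over the alternatives. Those of PTPN6 and PSME2 were near the threshold and were lost with limma-voom (0.056 and 0.054), with length-dependent offsets (0.058 and 0.068) and without any 1 of the 6 libraries (0.056 to 0.145 for PTPN6 and 0.067 to 0.125 for PSME2).

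Of the class II pathway, 8 genes were tested and 0 were called by edgeR, DESeq2 or limma-voom, with 0 at an unadjusted p under 0.05 and a median log2 fold change of 0.29. The invariant chain gene CD74 was at 81.4, 130.2 and 67.3 CPM in prepuberty and 65.3, 125 and 140.2 CPM in puberty. Both groups held low and high libraries, and the log2 fold change was 0.25 (95% interval -0.67 to 1.16). HLA-DRA, the alpha chain of the DR molecule, followed the same order within each group, at 38.9, 57.9 and 35.0 CPM and at 32.6, 46.9 and 54.9 CPM (log2 fold change 0.03, -0.55 to 0.61). All 8 genes were highest in prepuberty replicate 2 among the prepuberty libraries, and 6 were highest in puberty replicate 3 among the puberty libraries. The summed microglia and macrophage markers and the summed endothelial markers were both highest in these 2 libraries within their groups, and the part of either in these values was not tested. Lymphocyte markers were low, with a sum of 23.4 to 35.1 CPM in prepuberty and 27.0 to 39.9 CPM in puberty over 14 genes, and the B cell gene CD79B had 1 count in all.

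**Figure D4:**
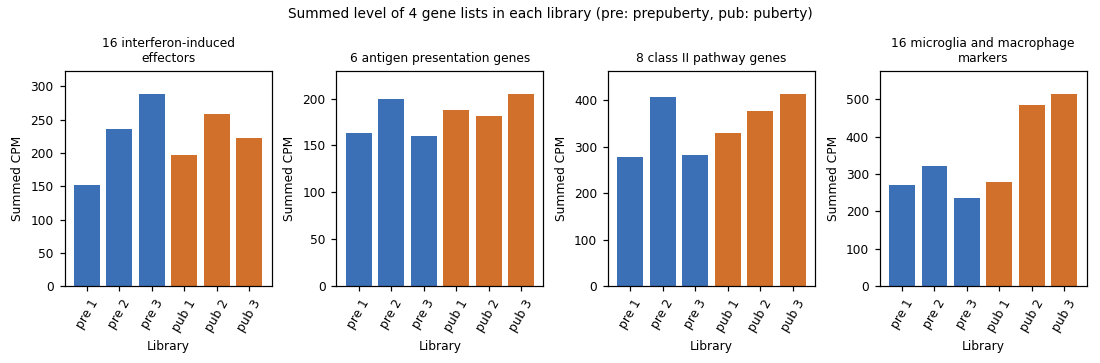
Summed CPM (vertical axes, starting at 0) of 4 gene lists in each library, prepuberty in blue and puberty in orange. The effector sum runs from 151 to 288 CPM within prepuberty and from 197 to 259 CPM in puberty, and the microglia and macrophage sum is highest in puberty replicates 2 and 3.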

How the data were processed

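The authors' deposited table of raw read counts per gene was used for the main test, and their deposited FPKM values for levels between genes and for 2 alternative tests. Tools named in the submitters' processing notes are DESeq2 1.20.0, featureCounts 1.5.0-p3, HISAT2 2.0.5, fastp and CASAVA 1.8, with no settings. They name human builds although the identifiers are those of goat, so coordinates are given as the table lists them. The library kit, per the labels' protocols, does not mark strand, so reads of overlapping genes cannot be told apart. Rows without a symbol held 21.7% of counts and stayed in the totals.

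The test of puberty against prepuberty was the quasi-likelihood F test of edgeR 4.0.16 in R 4.3.3, after filterByExpr (minimum count 10) and TMM scaling. Benjamini-Hochberg adjustment covered all genes tested, and calls were made under 0.05. CPM use TMM-scaled totals. Each SE is the log2 fold change divided by the root of F, and intervals of 95% follow from it. The fits were also run on simulated data whose spread between libraries was the same for every gene. That spread was set lower than the common one of these data (biological coefficient of variation 0.18). The run therefore does not show power or error rates for these data. The members and lists were chosen with earlier results of these data known. All 33 members could be named, and of other genes those called, class II genes, and a few others picked after their values were seen. Alternatives used DESeq2 1.42.0 and limma 3.58.1 (voom, and log2(FPKM + pseudocount), which understates changes of low genes). Counting error alone sets the limit given for a count of 0. Sequences were not used here. The values of 1 signalling gene are not reported here.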

Additional observations from a re-analysis of the deposited data

How the results depend on the processing

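Under 16 alternative settings 0 of the 33 genes were called in either direction, and the lowest adjusted p among them ran from 0.058 to 0.252. Of 528 fold changes of the 33 under these settings, 499 kept their sign and 29 turned, and 18 genes kept their sign throughout. MX2 turned to log2 fold changes of 0.24 with limma-voom, 0.18 with the replicate block, 0.12 on log2(FPKM + 1) and 0.22 on log2(FPKM + 0.1), and IFNGR1 to 0.026 and HLA-DRA to -0.066 with length-dependent offsets. The cause was not tested.

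With single libraries left out, log2 fold changes ran from -0.45 to 0.26 for CIITA, -0.046 to 0.17 for DTX3L, -0.36 to 0.13 for HERC6, -0.066 to 0.35 for IFI44, -0.27 to 0.11 for IFI44L and -0.48 to 0.17 for IFIT1. They ran from -0.38 to 0.071 for IFIT2, -0.16 to 0.17 for IFIT3, -0.19 to 0.079 for IFNGR1, -0.053 to 0.31 for IRF1, -0.46 to 0.47 for MX2 and -0.055 to 0.39 for NLRC5. They ran from -0.49 to 0.060 for PARP9, -0.52 to 0.025 for RSAD2, -0.014 to 0.23 for TAPBP and -0.14 to 0.29 for HLA-DRA.

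Over all genes, 971 higher and 935 lower calls became 366 and 354 with the replicate block, 475 and 455 with length-dependent offsets, 1628 and 1617 at an adjusted p under 0.1, 0 to 729 and 0 to 540 with single libraries left out. The 0 calls came without prepuberty replicate 1, where 3924 genes had an unadjusted p under 0.05. The 3 higher and 1 lower pathway genes became 8 and 4 with DESeq2, 8 and 6 at an adjusted p under 0.1, 1 and 1 with limma-voom, the replicate block and log2(FPKM + 0.1), 4 and 2 without a count filter, and 0 to 3 and 0 to 2 with single libraries left out.

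Libraries with the same number did not deviate together (correlations of 0.05, -0.10 and -0.10), so the replicate number was not taken as a pairing. CIITA, RSAD2 and the lymphocyte genes had few counts, which limits what could be detected for them.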
